A study of Mus musculus with 8 samples.

Results

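In ventricular RNA from mice carrying a deletion in 1 copy of Pkp2, 10 genes of the Notch pathway were followed: the receptors Notch1, Notch3 and Notch4, the ligands Dll4 and Jag1, the DNA-binding factor Rbpj, and the target genes Hes1, Hey1, Hey2 and Heyl. These 10 are a list of named genes, taken by symbol from a table of 38293 Ensembl genes, and all 10 were found in it. The list was drawn up with results of the same comparison in view, so its members were in effect chosen on the difference between the genotypes, that of Hes1 in particular. Their differences are therefore given as a description, and calls among them by any method are not read as support. All 10 passed the filter on low counts, as did 14567 genes in all.

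The samples were 4 libraries from heterozygous mice (HET; genotype label PKP2 c.1755A/WT, written c.1755delA/WT in the series title, while the count table is named for a deleted C) and 4 libraries from wild-type mice (WT; label PKP2 WT/WT), all at 8 weeks of age. Left and right ventricular tissue had been mixed, so RNA of muscle, vessel, stromal and blood cells was read together. Pkp2 encodes plakophilin-2 of the desmosome, and its human counterpart is mutated in arrhythmogenic cardiomyopathy. The labels give neither strain nor sex. Whether each library is a separate mouse is not stated either, so p-values reflect only the spread between libraries, which may in part be technical.

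Notch receptors are single-pass membrane proteins that bind Delta-like and Jagged ligands on a neighbouring cell. Binding leads to cleavage by ADAM proteases and then by gamma-secretase, and the freed intracellular domain enters the nucleus, where it joins Rbpj and Mastermind-like coactivators on DNA. The best known targets are the Hes and Hey genes, which encode basic helix-loop-helix repressors. In the heart the pathway is known for valve and trabecular development and for arterial identity. In adult tissue Notch1, Notch4, Dll4 and Jag1 are known from endothelial cells, and Notch3 and Heyl from the mural cells around vessels.

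The RBPJ core letters TGGGAA are shown in the promoters that held them, because this is the DNA word through which the pathway reads out. RefSeq promoter windows on GRCm38.p6, each of 300 bases with 250 before the annotated start, were given for 7 of the 10 genes (Notch1, Notch3, Notch4, Dll4, Jag1, Rbpj and Hey2). On either strand the core was found in 2 of the 7, Hey2 and Rbpj, and in 25.6% of all 32851 windows. Hey2 and Rbpj each held it 2 times, and 3.79% of all windows held it that often or more. Both Hey2 matches were also matches to the longer form GTGGGAA, which contains the core and occurred in 6.38% of windows. They began 207 bases before the start on the minus strand of the gene and 4 bases before it on the plus strand. Rbpj had 2 windows, each with its own annotated start, both inside the gene span of 53466152 to 53657362. The first held the core 149 and 65 bases before its start. The second, which overlaps the first, held it 1 time, 205 bases before its start. Neither held the longer form. Below, 280 bases of the Hey2 window and of the first Rbpj window are printed 5′ to 3′ on the strand of the gene. They end 30 bases after the start, with the core or its reverse complement in capitals. The Hey2 stretch is chr10:30842754-30843033 (minus strand) and the Rbpj stretch chr5:53590096-53590375 (plus strand). A match is a string of letters and not evidence of binding.
Hey2: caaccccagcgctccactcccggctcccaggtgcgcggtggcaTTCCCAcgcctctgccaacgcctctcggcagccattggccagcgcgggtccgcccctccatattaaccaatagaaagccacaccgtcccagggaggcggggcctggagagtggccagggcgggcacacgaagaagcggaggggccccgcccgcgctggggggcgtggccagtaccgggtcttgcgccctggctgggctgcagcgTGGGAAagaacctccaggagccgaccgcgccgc
Rbpj: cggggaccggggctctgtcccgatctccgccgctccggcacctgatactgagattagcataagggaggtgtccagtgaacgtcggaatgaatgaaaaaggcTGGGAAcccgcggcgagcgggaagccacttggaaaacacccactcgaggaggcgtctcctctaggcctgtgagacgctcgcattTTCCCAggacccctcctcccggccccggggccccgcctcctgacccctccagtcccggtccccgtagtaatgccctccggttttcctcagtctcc

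HET libraries held 32397302 to 38611008 counts and WT libraries 38510257 to 41234883, and the scarcest of the 10 genes, Hey2, had 149 to 203 counts per library. Levels are in CPM, read counts as a share of the TMM-scaled library size. Pkp2 had 99.2, 88.2, 96.0 and 105.6 CPM in HET libraries, against 169.1, 167.6, 148.5 and 165.7 CPM in WT libraries. The ventricular genes Myh6 (36583 ± 1011 CPM in HET and 33577 ± 665 CPM in WT, SD, n = 4 each) and Myl2 (7729 ± 269 CPM in HET and 7736 ± 627 CPM in WT) were high. Of 5 atrial markers, Myl7, Sln and Bmp10 had 0 to 4 counts per library and Myl4 62 to 149, while Nppa, which ventricular muscle can also express, had 217.9 to 461.3 CPM in HET and 268.6 to 352.4 CPM in WT. The sample titles hold a run of 4 digits that some samples share. HET replicates 1, 3 and 4 and WT replicate 1 share one run (the first title set), HET replicate 2 and WT replicates 3 and 4 another (the second title set), and WT replicate 2 has a run of its own. The labels do not say what the digits mark. WT replicate 3 differed from the other 7 libraries in its share of mitochondrially encoded counts, 14.7% against 17.1% to 19.1%.

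Hes1, the target that encodes a repressor of cell differentiation programmes, was the gene of the 10 with the widest gap between the genotypes. It lies on chromosome 16 (30064384 to 30067796, plus strand, GRCm38; ENSMUSG00000022528). Its level was 18.5, 22.7, 20.9 and 18.0 CPM in HET libraries and 23.0, 32.1, 30.2 and 32.7 CPM in WT libraries. The groups did not overlap, although WT replicate 1 came within 0.286 CPM of HET replicate 2. The means were 20.0 ± 2.2 CPM in HET and 29.5 ± 4.4 CPM in WT (SD, n = 4 each). The fitted HET level was 68.0% of that in WT, with a 95% interval from 56.8% to 81.3%. On the log2 scale the difference was -0.56 (SE 0.116). In bulk tissue, fewer cells of a type and less RNA per cell cannot be told apart.

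The Hes1 values are also given by title set, which the genotypes shared unequally. Within the first title set Hes1 averaged 19.1 CPM in 3 HET libraries and was 23.0 CPM in 1 WT library, which is 83.2% of the WT value. Within the second title set it was 22.7 CPM in 1 HET library and averaged 31.4 CPM in 2 WT libraries, which is 72.3%. HET was lower in both, and the third title set held WT alone. With the title set as a covariate the log2 difference was -0.36 (SE 0.086), and without WT replicate 1 it was -0.66. What part the title set has in the difference was not tested.

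Hes1 also lies 13.9 Mb from Pkp2 on the same chromosome. Of 255 tested genes that start within 20 Mb of Pkp2, Hes1 included and Pkp2 left out, 140 had a negative log2 fold change and the median was -0.01. Over all 14567 genes tested 7499 were negative and the median was -0.0038.

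Hey1, a repressor typical of arterial endothelium, had the next widest difference on the log2 scale, and its groups overlapped through 1 WT library. It was at 10.1, 10.3, 10.8 and 10.6 CPM in HET libraries, within a narrow band (coefficient of variation 2.98%), and at 8.10, 13.1, 13.3 and 14.0 CPM in WT libraries. WT replicate 1 lay below every HET library and the other 3 WT libraries above them. The means were 10.4 ± 0.3 CPM in HET and 12.1 ± 2.7 CPM in WT (SD, n = 4 each), with a log2 fold change of -0.22 (SE 0.149). This value was -0.36 without WT replicate 1, and 0.0039 with the title set as a covariate. WT replicate 1 was thus the lowest WT library for both Hes1 and Hey1.

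Heyl, the Hey-family gene of vascular smooth muscle and pericytes, was the most counted of the 4 targets. It had 45.2, 45.8, 37.7 and 45.2 CPM in HET libraries and 51.3, 45.6, 47.5 and 43.8 CPM in WT libraries. The groups overlapped, and HET replicate 3 was the low one. Its means were 43.5 ± 3.9 CPM in HET and 47.0 ± 3.2 CPM in WT (SD, n = 4 each), a log2 fold change of -0.11 (SE 0.073), and -0.05 without HET replicate 3. Hey2, which in the developing heart marks compact ventricular myocardium, had 3.95, 5.02, 5.41 and 5.22 CPM in HET libraries and 4.76, 4.63, 4.57 and 4.61 CPM in WT libraries. The 4 WT values lay inside the HET range, with a log2 fold change of 0.08 (SE 0.115). It was 0.17 without HET replicate 1 and 0.03 without HET replicate 3. The Hey2 promoter shown above thus belongs to a target whose difference was smaller than the spread between HET libraries.

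**Figure D1:**
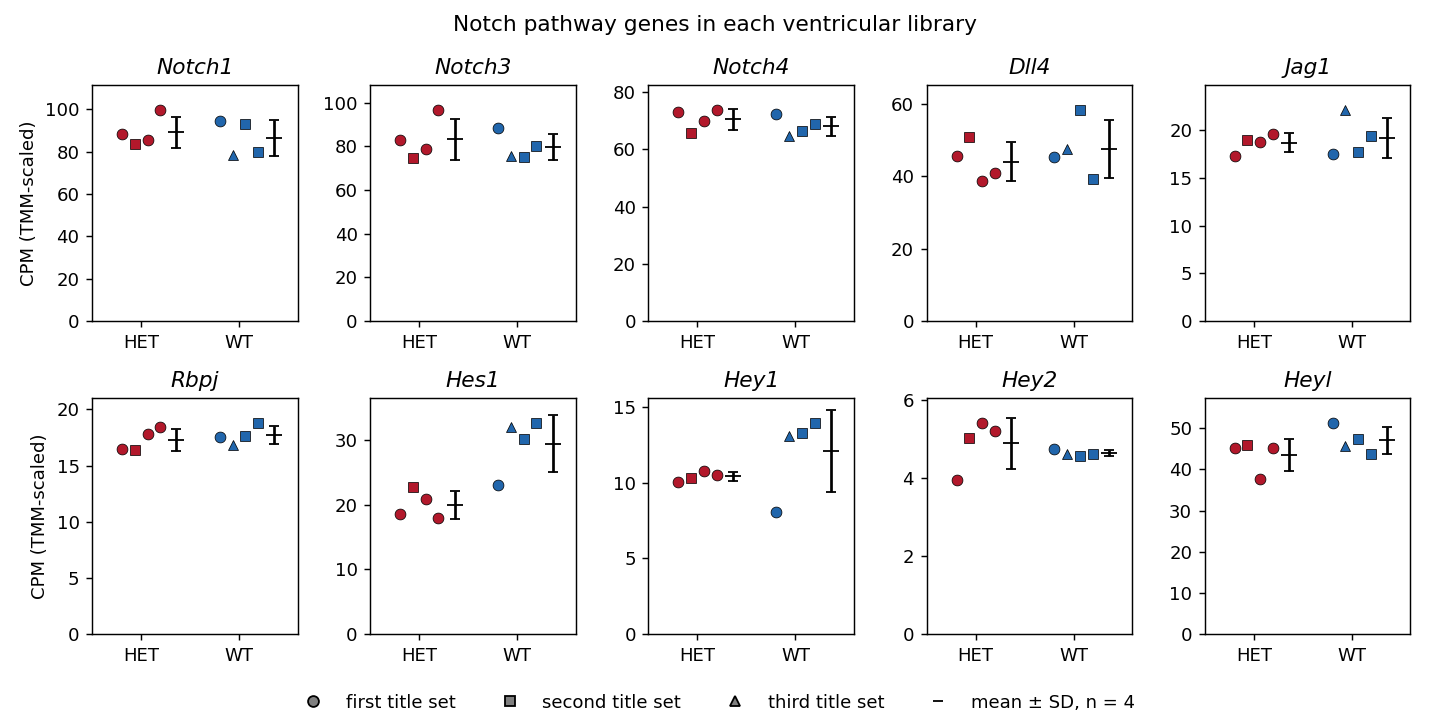
CPM of the 10 Notch genes (y axis, linear from 0) in the 4 HET (red) and 4 WT (blue) libraries, with the title set as the symbol and the mean ± SD beside each group. Hes1 is the one gene of the 10 whose groups do not overlap, and in Hey1 WT replicate 1 (8.10 CPM) lies below all HET libraries.

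The receptors differed little between the genotypes. Notch1, the main endothelial receptor, had 88.2, 83.5, 85.4 and 99.6 CPM in HET libraries and 94.5, 78.7, 93.2 and 79.6 CPM in WT libraries, with overlapping groups and a log2 fold change of 0.04 (SE 0.079). Notch3, the receptor of mural cells, had 82.8, 74.8, 78.8 and 96.6 CPM in HET libraries and 88.3, 75.6, 75.2 and 80.1 CPM in WT libraries, again overlapping (0.06, SE 0.082). HET replicate 4 had the highest value of both receptors, and without it their log2 fold changes were -0.01 and -0.01. Notch4, an endothelial receptor, ran from 65.6 to 73.6 CPM in HET and from 64.7 to 72.3 CPM in WT (0.05, SE 0.055). With the title set as a covariate the receptor values were -0.05, -0.04 and -0.02 for Notch1, Notch3 and Notch4. The intervals of all 3 receptors lay between -0.13 and 0.24, that is between 91.4% and 118.4% of the WT level.

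The ligands and Rbpj overlapped between the genotypes as well. Dll4, the ligand of arterial and capillary endothelium, had 45.5, 50.9, 38.7 and 40.9 CPM in HET libraries and 45.4, 47.4, 58.2 and 39.1 CPM in WT libraries. WT replicate 3 was its highest library, and the log2 fold change of -0.11 (SE 0.125) was -0.0018 without that library. Jag1, the ligand shared by endothelium and smooth muscle, ranged from 17.3 to 19.6 CPM in HET and from 17.5 to 22.1 CPM in WT (log2 fold change -0.04, SE 0.081; 0.04 without WT replicate 2). Rbpj, on which the canonical readout of all 4 mouse receptors depends, stayed between 16.4 and 18.8 CPM in all 8 libraries. Its 16.5, 16.4, 17.8 and 18.4 CPM in HET libraries and 17.5, 16.9, 17.7 and 18.8 CPM in WT libraries gave a log2 fold change of -0.04 (SE 0.062), between 88.7% and 107.3% of the WT level.

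Signs, calls and overlaps of the 10 genes are set beside those of all genes tested. Of the 10, 4 had a positive and 6 a negative log2 fold change, beside 7068 and 7499 of all 14567 genes tested. The median of the 10 was -0.04, beside -0.0038 over all genes tested. With edgeR, 0 of the 10 were called at an adjusted p of 0.05, where 0.00686% of all genes tested (Pkp2 alone) were called, and 1 of the 10 (Hes1) had an unadjusted p under 0.05, as did 930 of all genes. DESeq2 called 1 of them, Hes1, among 13 genes that it called over the whole table, and limma-voom called 0 of them. Groups did not overlap, with HET lower, for 1 of the 10, beside 2.08% of all genes tested. Nothing is read from these counts and calls, since the list was made with this comparison known.

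**Figure D2:**
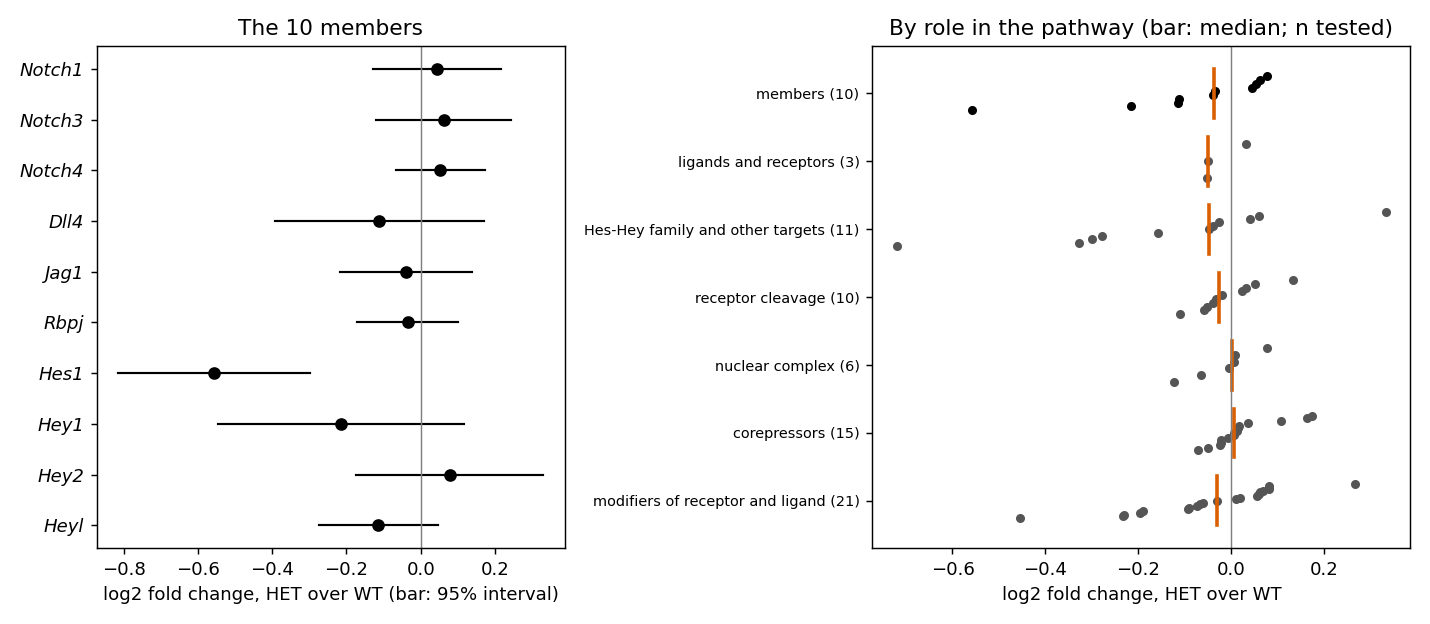
Left, log2 fold change (HET over WT) of each of the 10 genes with its 95% interval from the edgeR fit; right, log2 fold changes of the tested genes by role in the pathway, with the number tested in brackets and the median as a bar. Hes1 at -0.56 stands apart from the other 9, which lie between -0.22 and 0.08, and every median lies between -0.05 and 0.01.

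Levels were compared between genes per kilobase of annotated exon, on the mean over all 8 libraries. The order was Hes1 (12.2 CPM per kb), Dll4 (11.9), Notch3 (10.1), Heyl (8.85), Notch4 (8.60), Notch1 (6.17), Hey1 (3.45), Jag1 (3.25), Rbpj (1.37) and Hey2 (1.04). The ranges over libraries overlapped between neighbours from Hes1 down to Notch4, and between Hey1 and Jag1. Notch4 lay wholly above Notch1, Notch1 above Hey1, Jag1 above Rbpj and Rbpj above Hey2. The exon length used is the union over all annotated transcripts, 12750 bases for Rbpj, 14232 for Notch1, 8061 for Notch4 and 2037 for Hes1. Genes with many transcripts, such as Rbpj, are thus set low on this scale. The order of Notch4 and Notch1 depended on these lengths. In CPM, not divided by length, Notch1 (89.2 in HET and 86.5 in WT) was above Notch4 (70.6 in HET and 68.0 in WT). In WT alone Hes1 was first at 14.5 ± 2.2 CPM per kb, and in HET it was at 9.84 ± 1.07 CPM per kb, beside 11.4 ± 1.4 for Dll4 and 10.3 ± 1.2 for Notch3.

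The balance among receptors and among ligands was close between the genotypes. The shares are on the scale per kilobase and so depend on the exon lengths used. Notch3 made up 35.9% ± 1.7 of the 4 receptors in HET and 35.8% ± 1.6 in WT (SD, n = 4 each). Notch4 made up 30.7% ± 1.0 in HET and 30.7% ± 1.0 in WT, Notch1 21.9% ± 0.4 in HET and 22.0% ± 1.2 in WT, and Notch2 the rest. Among ligands Dll4 was 48.4% ± 4.1 in HET and 49.4% ± 4.0 in WT, followed by Jag2, Jag1 and Dll1. Among the 4 Hes-Hey genes of the list Hes1 made up 43.5% ± 3.1 in HET and 50.7% ± 3.7 in WT, and Heyl 37.7% ± 3.3 in HET and 32.7% ± 5.3 in WT. The Hes1 share was 41.6%, 45.8%, 46.4% and 40.1% in HET libraries and 45.5%, 53.0%, 50.8% and 53.7% in WT libraries, so the groups overlapped through WT replicate 1.

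**Figure D3:**
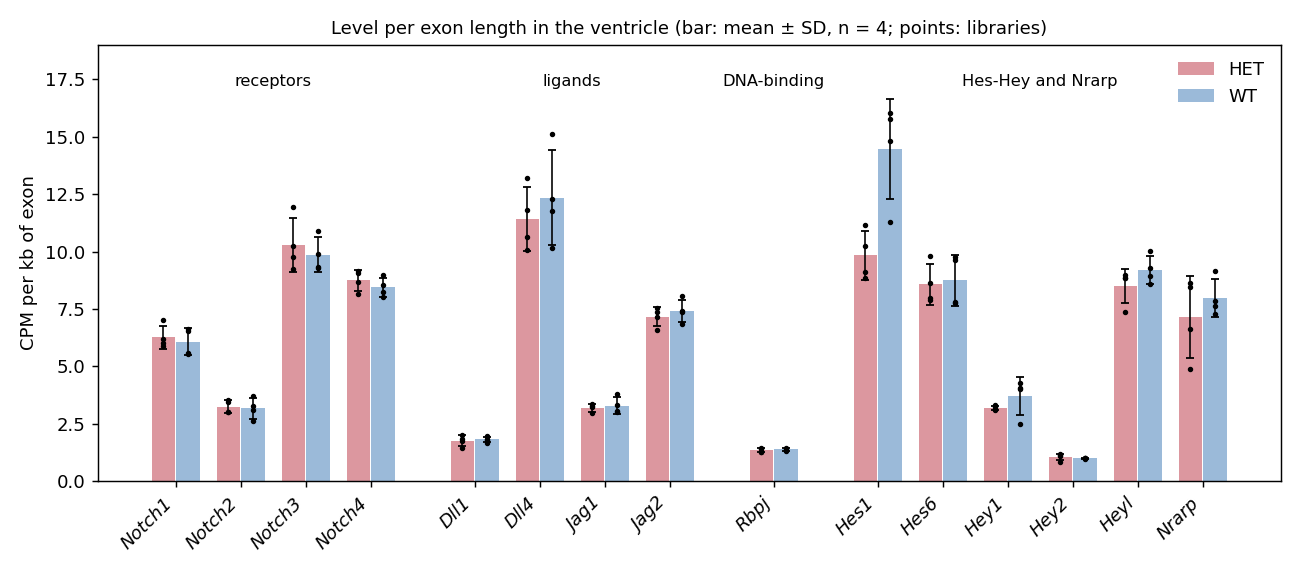
Level per kilobase of exon (CPM per kb, linear from 0) of the tested receptors, ligands, Rbpj, the Hes and Hey genes and Nrarp in HET (red, left) and WT (blue, right), with the mean ± SD as a bar (n = 4) and points for libraries. Dll4, Notch3, Notch4 and Heyl stand at similar heights in both genotypes, while Hes1 is at 9.84 in HET and 14.5 in WT.

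Of 73 other genes of the pathway, listed by role, 66 passed the filter on low counts. In the edgeR fit 0 were called higher and 0 lower over all genes, with adjusted p-values from 0.770 to 0.994. An unadjusted p under 0.05 was found for 2, Ccnd1 among them, as for 930 of all 14567 genes. DESeq2 and limma-voom also called 0. Of the 66, 30 had a positive and 36 a negative log2 fold change, with a median of -0.02. Over all 14567 genes 7068 were positive and 7499 negative.

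Among the remaining receptors and ligands, Jag2 averaged 49.9 ± 2.9 CPM in HET and 51.6 ± 3.4 CPM in WT, and Notch2 averaged 35.0 ± 3.0 CPM in HET and 34.3 ± 5.0 CPM in WT (SD, n = 4 each). Dll1, a ligand best known from developing tissue, averaged 7.45 ± 1.01 CPM in HET and 7.72 ± 0.51 CPM in WT. Dll3, Dlk1 and Dner did not pass the filter, with 0 to 10 counts per library.

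Of 15 further Hes-Hey relatives and targets, 11 were tested, 3 with a positive and 8 with a negative log2 fold change. Ccnd1, cyclin D1 of the cell cycle and a gene with several other inputs, was at 72.0, 60.8, 71.2 and 61.2 CPM in HET libraries and at 89.8, 78.5, 77.5 and 76.0 CPM in WT libraries. Its groups did not overlap, with HET lower, as in 2.08% of all genes tested (log2 fold change -0.28, SE 0.076, with an edgeR adjusted p of 0.770). Nrarp, a feedback inhibitor of Notch signalling, ran from 12.6 to 22.3 CPM in HET and from 18.8 to 23.7 CPM in WT, with HET replicate 4 lowest. Its log2 fold change of -0.16 (SE 0.172) was -0.0098 without that library. Hes6, which counteracts Hes1 in neural cells, averaged 15.5 ± 1.6 CPM in HET and 15.8 ± 2.0 CPM in WT. The arterial ephrin Efnb2 (log2 fold change -0.04) and the endothelial and blood factor Gata2 (-0.05) differed by less than their standard errors of 0.067 and 0.068.

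The less abundant targets varied more. Myc, a proliferation factor, averaged 3.73 ± 1.16 CPM in HET and 4.67 ± 1.83 CPM in WT, and its log2 fold change of -0.33 (SE 0.320) was -0.13 without WT replicate 1. Snai2, a repressor of epithelial genes, averaged 3.08 ± 0.21 CPM in HET and 3.79 ± 0.83 CPM in WT (-0.30, SE 0.157; -0.14 without WT replicate 2). Snai1, its relative, had 0.06 (SE 0.164), and the nuclear-receptor partner Nrip2 had 0.04 (SE 0.154). Helt, a Hes-Hey relative, averaged 0.855 CPM in HET and 1.42 CPM in WT (-0.72, SE 0.366), and Dtx1, a ubiquitin ligase of the pathway, averaged 1.28 CPM in HET and 1.01 CPM in WT (0.33, SE 0.216). Dtx1 moved to 0.58 with the title set as a covariate and to 0.19 without WT replicate 1. Hes2, Hes3, Hes5 and Hes7 did not pass the filter, at 0 to 8 counts per library.

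The edgeR fit called 0 genes of the machinery around the receptors, where it called Pkp2 alone of all genes tested. All 10 genes of receptor cleavage were tested, 4 of them positive (median -0.03). Furin, which cuts receptors on their way to the surface, averaged 144.5 ± 7.9 CPM in HET and 131.8 ± 10.3 CPM in WT (log2 fold change 0.13, SE 0.065; 0.05 with the title set as a covariate), and the gamma-secretase subunit Aph1a had -0.05 (SE 0.073). All 6 genes of the nuclear complex were tested, 3 of them positive (median 0.0011), with the coactivators Maml1 at 0.08 (SE 0.075) and Maml3 at -0.12 (SE 0.137). Of 15 corepressors 9 were positive (median 0.01). Spen, a corepressor that binds Rbpj, averaged 62.9 ± 6.9 CPM in HET and 56.1 ± 5.2 CPM in WT (log2 fold change 0.16, SE 0.089; 0.11 with the title set as a covariate). Of 21 modifiers of receptors and ligands 10 were positive (median -0.03), with the endocytic adaptor Numbl at -0.23 (SE 0.128) and the xylosyltransferase Gxylt1 at -0.20 (SE 0.119). The widest difference among these 21 was that of Dtx3l (-0.45, SE 0.387). It was at 64.6 CPM in WT replicate 3, against 20.4 to 26.8 CPM in the other WT libraries.

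Because Notch1, Notch4, Dll4 and Hey1 are mainly endothelial in the adult heart, the levels of vascular cell markers stand beside them. The summed level of 17 endothelial markers was 1780 to 1965 CPM in HET libraries and 1792 to 2099 CPM in WT libraries, and none of the 17 was at 0. In the edgeR fit 0 of the 17 were called, 5 had a positive log2 fold change (median -0.03), and 3 had an unadjusted p under 0.05, as did 930 of all 14567 genes. In those 3, Ramp2, Icam2 and Egfl7, every HET library was below every WT library, as in 2.08% of all genes tested. Ramp2, a receptor-associated protein of endothelium, averaged 33.7 ± 1.1 CPM in HET and 39.5 ± 1.8 CPM in WT, and the adhesion molecule Icam2 averaged 22.9 ± 1.2 CPM in HET and 27.7 ± 1.4 CPM in WT. Their log2 fold changes were -0.23 (SE 0.051) and -0.27 (SE 0.061), with an edgeR adjusted p of 0.770 for each. Egfl7, a secreted endothelial protein, averaged 117.0 ± 11.2 CPM in HET and 144.1 ± 9.8 CPM in WT (-0.30, SE 0.075). The 10 mural markers summed to 1341 to 1457 CPM in HET libraries and 1313 to 1484 CPM in WT libraries. Of these 0 were called by edgeR and 1 had an unadjusted p under 0.05, Kcnj8, a pericyte potassium channel (39.5 ± 2.0 CPM in HET and 46.2 ± 3.5 CPM in WT), followed by Cspg4 (-0.18, SE 0.097). DESeq2 and limma-voom called 0 markers of either list.

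Set against the endothelial sum of the same library, Hes1 kept a similar ratio of genotypes but not the separation of groups. Per 100 CPM of endothelial markers it was 0.983, 1.23, 1.17 and 0.917 CPM in HET libraries and 1.10, 1.79, 1.67 and 1.73 CPM in WT libraries. The HET mean was 68.5% of the WT mean, and WT replicate 1 fell among the HET libraries. On the same measure the HET mean was 104.4% of the WT mean for Notch1, 105.2% for Notch4, 93.3% for Dll4, 98.1% for Jag1 and 86.3% for Hey1, with overlapping groups. Against the mural sum the HET mean was 105.3% of the WT mean for Notch3 and 92.9% for Heyl. What part cell numbers have in these values was not tested.

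The genes whose pattern was most like that of Hes1, Notch1 and Notch3 were found from deviations of log2 CPM from the genotype mean, over 8 libraries and among 8438 other genes of at least 10 CPM. For Hes1 they were Myg1 (Pearson r 0.986), Pomgnt2 (0.984) and Pfdn6 (0.977). For Notch1 they were Klf3 (0.969), N4bp1 (0.967) and Man2a1 (0.965), and for Notch3 Arhgef10 (0.977), Spry1 (0.953) and Ehd2 (0.951). These values are descriptions of likeness, picked as the highest of many over few libraries.

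Whether the counting separated Notch1, Notch3 and Dll4 from their neighbours is not known, since the strand setting is not given. On GRCm38 the exons of Notch1 (chromosome 2, 26457903 to 26516663, minus strand), Notch3 (chromosome 17, 32120820 to 32166852, minus strand) and Dll4 (chromosome 2, 119325784 to 119335962, plus strand) share bases with antisense transcripts. The shared part was 7.50% of Notch1 exon bases for 0610009E02Rik, 6.03% of Notch3 for Gm17276 and 5.56% of Dll4 for Gm14207. These 3 transcripts had 16 to 81 counts per library, against 1452 or more for each of the 3 genes, and reads over the shared bases may have been assigned to either or dropped. Gm13568, also antisense, shared 2.91% of Notch1 exon bases and had 1 to 6 counts per library. No exon of the other 7 genes shared bases with an exon of another annotated gene. They are Hey1 (chromosome 3, 8663359 to 8667256), Hey2 (chromosome 10, 30832359 to 30842801), Heyl (chromosome 4, 123233556 to 123249875), Notch4 (chromosome 17, 34564268 to 34588503), Jag1 (chromosome 2, 137081456 to 137116644), Rbpj (chromosome 5, 53466152 to 53657362) and Hes1.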

How the data were processed

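Poly(A) RNA of 4 HET and 4 WT ventricle samples was sequenced from stranded TruSeq libraries after Trizol extraction, per the labels. The authors deposited read counts per Ensembl gene, whole numbers that were not normalised, in 8 columns matched to samples by title. Per the submitters' processing notes, STAR 2.4.2a, HTSeq 0.6.1 and GRCm38/mm10 were used. The annotation release and strand setting are not given in the sources used here. Groups came from the genotype label, and replicate numbers follow deposition order and pair nothing.

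Symbols were matched by Ensembl identifier (36345 of 38293), and positions and exon lengths taken from GENCODE M21 (GRCm38). Counts were filtered with filterByExpr, TMM-scaled and tested over all 14567 genes with edgeR 4.0.16 in R 4.3.3 (robust quasi-likelihood fit, no covariate, Benjamini-Hochberg adjustment, threshold 0.05), a procedure tested on simulated data. Standard errors come from the F statistic. Likeness used log2 CPM with a prior count of 2.

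Members and lists were chosen with earlier results of these data known. Named were Pkp2, the 10 members, all tested receptors, ligands and targets of the pathway list, the 2 genes of smallest p in each other pathway list and in the endothelial and mural lists, and 3 genes of highest likeness for Hes1, Notch1 and Notch3. One gene that this rule names is not reported here. The ventricular genes, given as a tissue check, Egfl7 and Dtx3l were picked from their lists after their values were seen. Alternatives tried were library-size, RLE or upper-quartile scaling, counts without the filter, a filter of 1 CPM in 4 samples, DESeq2 1.42.0, limma-voom (limma 3.58.1) with sample weights, the title set (digits shared by titles) as covariate, and leaving out each library.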

Additional observations from a re-analysis of the deposited data

Results flagged for a closer look

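Among 36 genes checked for a library far from the other 3 of its group, 2 of 72 groups stood out, where chance alone gives about 1 in 20. Dtx3l was not among the genes checked. Hey1 was at 8.10 CPM in WT replicate 1, against 13.1 to 14.0 CPM in the other WT libraries. Heyl was at 37.7 CPM in HET replicate 3, against 45.2 to 45.8 CPM in the other HET libraries. The causes were not tested.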

How the results depend on the processing

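Among all genes 1 was called, Pkp2, against 2 without the filter, 13 with DESeq2 and 1 to 3 when a library was left out (3 without HET replicate 3). Of the 10 members 0 were called, except 1 (Hes1) with DESeq2. That call is not read as support, since Hes1 was chosen with its difference in view. No alternative called a gene of the other pathway, endothelial or mural lists. The median of the members was -0.079 to -0.034 over other settings and -0.062 to -0.0086 without single libraries. Hes1 stayed negative under all 16 alternatives (-0.66 to -0.36). Of the other members, Hey1 (0.0039), Notch1 (-0.051), Notch3 (-0.044), Notch4 (-0.021) and Jag1 (0.059) changed sign with the title set as a covariate. So did Notch1 (-0.0098) and Notch3 (-0.014) without HET replicate 4, and Jag1 (0.035) without WT replicate 2. The mural median of 0.040 ranged from -0.039 to 0.083 and so had no stable sign. Some values near 0 changed sign: Notch2 (library-size scaling -0.014, title set -0.0074, single libraries left out -0.052 to 0.12), Dll1 (-0.12 to 0.032 without single libraries), Hes6 (title set 0.031, without single libraries -0.098 to 0.030), Nrip2 (library-size scaling -0.00044, limma-voom -0.0054, title set -0.0017, without single libraries -0.078 to 0.14) and Snai1 (-0.024 to 0.17 without single libraries). The causes were not tested. No paired analysis was possible because the labels give no replicate numbers that match libraries one to one. The title set, shared by unequal numbers of HET and WT libraries, entered as a covariate only.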
